A study of Mus musculus with 84 samples.

Results

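The genes described here encode the proteins of the cytoplasmic ribosome and the factors that initiate, elongate and regulate translation. They were chosen by symbol alone: a clone was a member if it carried a single symbol of the form Rpl, Rps, Rplp, Eif or Eef followed by a digit, with the Rps6k kinases left out. Clones of the same gene were averaged. The 15k arrays held 55 such genes on 66 clones, of 7766 genes with a single-symbol clone. They comprised 16 proteins of the large subunit, 7 of the small subunit, 21 initiation factors, 4 elongation factors, 5 regulators of initiation or elongation, and 2 enzymes that methylate elongation factor eEF1A. The smaller 8.7k arrays held 42 such genes on 46 clones, of 5725. No single-symbol clone was present for Eef2, Eif4e, Eif4ebp1, Eif6 or Rplp0, and Eif2ak2 was present on the 15k arrays alone.

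The samples came from mice in which the mouse mammary tumor virus (MMTV) promoter drove Wnt-1 or Neu in the mammary gland, and from nontransgenic mice. The 15k arrays covered 23 mammary tumors of MMTV-Wnt-1 mice (WntT, ages 9 to 56 weeks), 12 mammary tumors of MMTV-Neu mice (NeuT, 32 to 60 weeks), 7 hyperplastic glands of MMTV-Wnt-1 mice (WntH, 9 weeks), 5 virgin mammary glands of nontransgenic mice (VMG, 9 weeks) and 3 samples of intestinal fat from virgin mice (Fat, 12 weeks). They also covered 10 lung metastases of MMTV-Wnt-1 mice (WntM), 3 of MMTV-Neu mice (NeuM) and 2 lung tumors that grew after Neu tumor cells were injected into the tail vein, kept as a group of their own. The 8.7k arrays covered 6 mammary tumors of MMTV-Wnt-1 mice that lacked p53 (WntT/p53-/-, 9 to 14 weeks) and 10 other MMTV-Wnt-1 tumors (9 to 56 weeks). The MMTV-Wnt-1 mice were a mixture of mostly FVB with SJL and C57BL/6. The nontransgenic and MMTV-Neu mice were FVB, so transgene and strain background cannot be told apart. The Neu transgene was a wild-type rat cDNA.

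Each value was a log2 ratio of the sample, labelled with Cy5, to a common reference RNA pooled from mouse organs and labelled with Cy3. A value of 0 therefore marks the level of that pool, and ratios of different genes do not rank their levels. On the 15k arrays the median log2 ratio of an array lay between -0.144 and 0.0431 and the SD of an array between 0.67 and 2.59, with 6 arrays above 1.3 (2 WntT, 1 Fat and 3 WntM). Nothing in the sources used here states whether arrays of the same group came from separate dissections of separate mice, so p-values measure the spread between these arrays. Tissues were whole pieces. Adipocyte markers averaged a log2 ratio of 2.18 in VMG, 1.11 in WntH, -1.33 in WntT and -1.40 in NeuT, and skeletal muscle markers 2.63 in VMG, 2.19 in WntH, -0.50 in WntT and -0.43 in NeuT. The parts played by tissue makeup in the results were not tested, and in whole tissue fewer cells of a type and less RNA per cell cannot be told apart.

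A ribosome consists of a large and a small subunit, each built from ribosomal RNA and many different proteins that are made in matched amounts. Initiation factors bring the small subunit, the initiator tRNA and the mRNA together, with eIF2 carrying the tRNA, eIF3 serving as a scaffold and eIF4 proteins binding the cap and unwinding the leader. Elongation factors then deliver aminoacyl-tRNAs and move the ribosome along. Mammalian mRNAs for ribosomal proteins and elongation factors typically begin with a C followed by a run of pyrimidines, the 5′ terminal oligopyrimidine tract, through which growth signals via mTOR control their translation. Cells that grow and divide fast need many ribosomes.

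The start sites of members were read from the RefSeq promoter table (build GRCm38.p6), which had a window for 45 of the 55 genes, among 27025 genes in all. A C at the annotated start followed by 4 letters that were each C or T, read on the gene's own strand, stood in 8 of the 45: in 6 of 17 ribosomal protein genes (Rpl35, Rpl35a, Rpl38, Rplp2, Rps15a and Rps6) and in 2 of 28 other members (Eif2s3x and Eif3f). Of all 27025 genes, 3.01% had such a start. The match is a description of letters at a single annotated base and depends on which start RefSeq chose. The following 30 bases show 15 before and 15 from the start for 5 members with a match, with the C and the 4 pyrimidines after it in capitals, and for 3 without. They are shown because Rps6, Rpl35, Rpl38 and Rpl23 were higher in WntH, WntT and NeuT than in VMG, Rps25 was lower in both tumor types, Eif3f was called in no comparison, and Eif3d and Eif2s3x were among the factors that separated tumors from hyperplastic glands.
Rps6, chr4:86857353-86857382, minus strand: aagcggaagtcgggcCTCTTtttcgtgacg
Rpl35, chr2:39005117-39005146, minus strand: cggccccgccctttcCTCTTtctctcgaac
Rpl38, chr11:114668565-114668594, plus strand: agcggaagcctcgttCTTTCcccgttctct
Eif3f, chr7:108934400-108934429, plus strand: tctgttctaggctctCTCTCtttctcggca
Eif2s3x, chrX:94212637-94212666, minus strand: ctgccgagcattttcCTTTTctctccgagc
Rpl23, chr11:97782425-97782454, minus strand: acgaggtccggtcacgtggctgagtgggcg
Rps25, chr9:44407699-44407728, plus strand: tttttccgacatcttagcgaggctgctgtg
Eif3d, chr15:77970810-77970839, minus strand: gtggtagggccatttacgacagcgctggtc
Rps6 and Rpl35 shared the capitals CTCTT. Rpl23, whose rise in hyperplastic glands came next to that of Rpl7, and Rps25 had other bases at the annotated start.

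Averaged per array, the 23 ribosomal protein genes had a mean log2 ratio of -0.25 ± 0.29 in Fat, 0.25 ± 0.16 in VMG, 0.92 ± 0.17 in WntH, 0.88 ± 0.12 in WntT, 0.77 ± 0.12 in WntM, 0.70 ± 0.10 in NeuT and 0.76 ± 0.23 in NeuM (SD, n = 3, 5, 7, 23, 10, 12 and 3). The 21 initiation factors followed another order, with -0.16 ± 0.04 in Fat, -0.19 ± 0.19 in VMG, -0.20 ± 0.11 in WntH, 0.27 ± 0.12 in WntT and 0.21 ± 0.13 in NeuT. By these class means hyperplastic glands lay with the tumors in ribosomal proteins and with the normal gland in initiation factors. The initiation factor means covered genes that moved both ways between VMG and WntH, from 0.61 for Eif3m to -0.93 for Eif3a (not called). Single VMG arrays ran from -0.42 to -0.04 in that class, and the median array stood at -0.09 in VMG and -0.23 in WntH. Among Fat, VMG, WntH, WntT and NeuT, Fat had the lowest mean for 19 of the 23 ribosomal protein genes, and the highest mean was in WntH for 10, in WntT for 8, in NeuT for 3 and in VMG for 2.

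**Figure D1:**
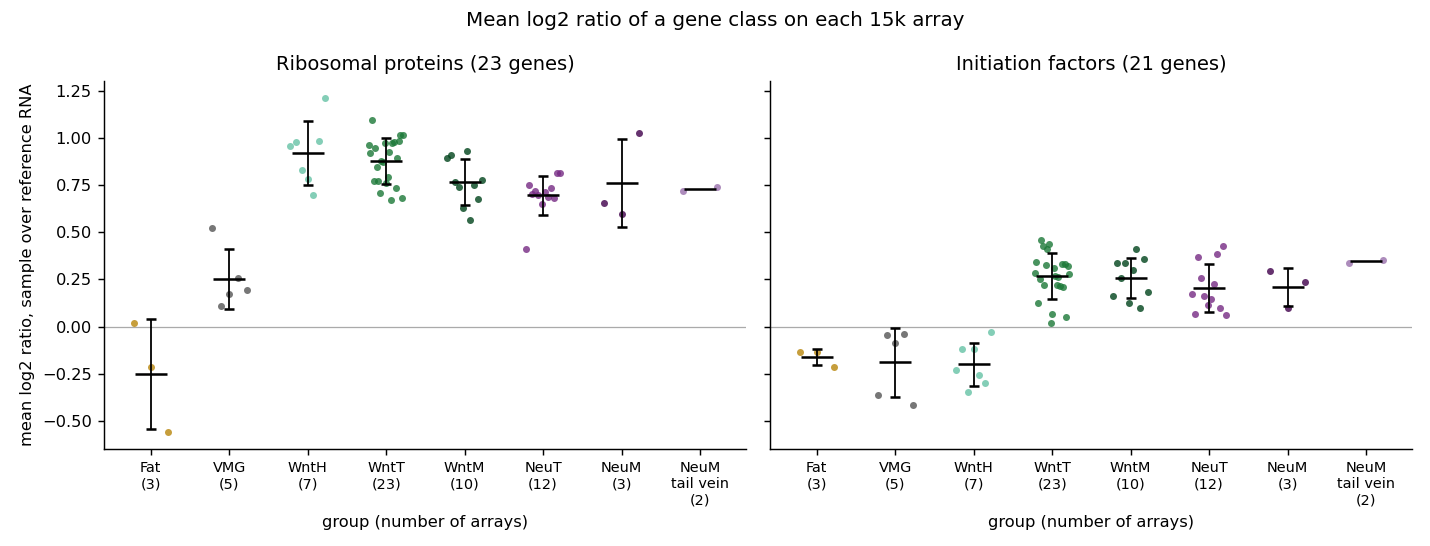
Mean log2 ratio to the reference RNA per 15k array, over 23 ribosomal protein genes and over 21 initiation factors, by group (points, arrays; bars, group mean ± SD, no SD for the 2 tail vein arrays). Ribosomal proteins averaged 0.92 in WntH against 0.25 in VMG, whereas initiation factors averaged -0.20 in WntH and -0.19 in VMG (medians -0.23 and -0.09).

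The ribosomal protein genes mostly varied together between arrays of the same group. After each group's mean was taken off, the median correlation between pairs of the 23 genes was 0.34 over the 65 arrays, which share the reference RNA and each array's own hybridisation. Of the 23, 17 correlated at 0.4 or above with the mean of the others, up to 0.81 for Rpl38 and 0.80 for Rpl13a. Rpl3l, a form of L3 found in muscle, and Rps12 did not follow the rest (-0.07 and -0.08). A second set gathered around Eef1a1, which encodes the main factor that delivers aminoacyl-tRNA: its deviations correlated at 0.81 with Eif3l, 0.74 with Eif3d, 0.68 with Eif2s3x and 0.67 with Eif2s3y.

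**Figure D2:**
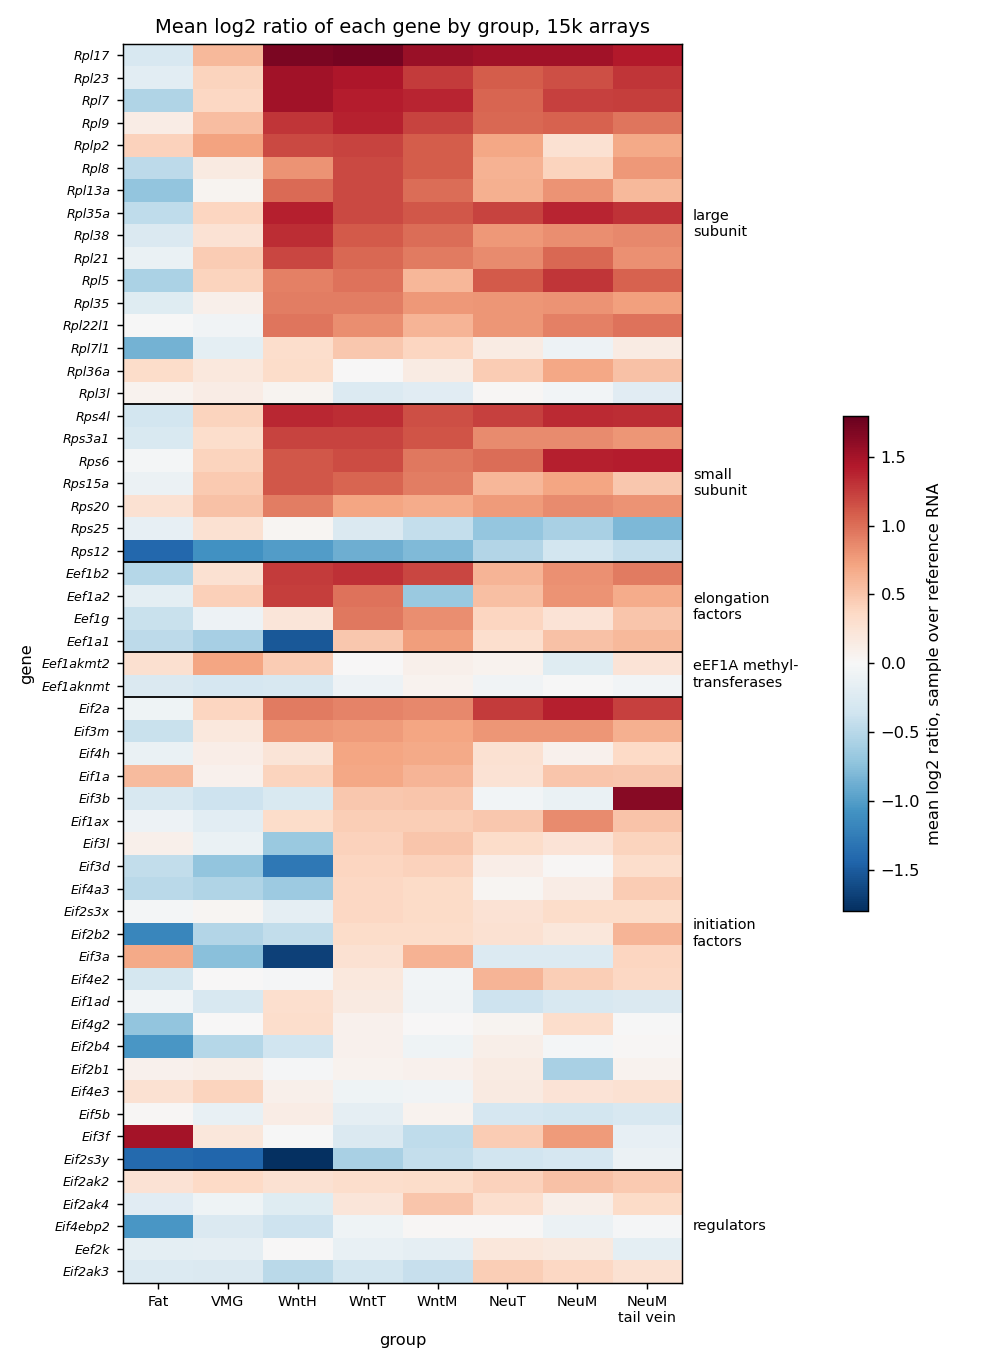
Mean log2 ratio of each of the 55 member genes (rows, by class) in 8 groups of 15k arrays (columns), coloured between -1.8 and 1.8. Most ribosomal protein rows are high in WntH, WntT, WntM, NeuT and NeuM and near or below 0 in Fat, while Rps12, Rps25, Rpl3l and Rpl36a depart from that pattern.

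The comparison of hyperplastic glands with virgin glands addressed the first step of tumor development in MMTV-Wnt-1 mice. Ribosomal protein genes rose: 18 of 23 were called higher (adjusted p under 0.05 in limma), against 9.58% of all genes called higher and 14.3% called lower. Their median log2 difference was 0.73, beside -0.02 over all genes tested. By subunit, 13 of 16 large-subunit genes and 5 of 7 small-subunit genes rose. Over all 55 members 24 were called higher and 1 lower. Leaving out each VMG array in turn gave 22 to 25 higher, and the count lower became 5 without VMG 17, 6 without VMG 13 and 0 without VMG 27, 28 or 29, with 4 lower in a single fit over all groups.

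Rpl7, Rpl23 and Rpl17, all proteins of the large subunit, had the largest rises. Rpl17 had log2 ratios from 1.302 to 2.21 in WntH with a median of 1.76, against 1.12, 0.49, 0.39, 0.57 and 0.37 in VMG. The groups did not overlap, and the log2 difference was 1.11 ± 0.17 (SE, adjusted p = 0.000554). Rpl7 ran from 1.19 to 1.94 in WntH with a median of 1.48, against 0.86, 0.32, 0.23, 0.42 and 0.02 in VMG, a 2.21-fold rise with a log2 difference of 1.14 ± 0.15 (adjusted p = 0.000243). Rpl23, on the face of the large subunit that meets the small one, rose by 1.11 ± 0.16 (adjusted p = 0.000414). Rps6, the small-subunit protein phosphorylated by S6 kinases downstream of mTOR, ran from 0.94 to 1.45 in WntH with a median of 1.01, against 0.52, 0.17, 0.27, 0.57 and 0.46 in VMG. All 7 hyperplastic glands lay above all 5 virgin glands, by 0.72 ± 0.11 (adjusted p = 0.000598). The other ribosomal protein genes that rose had log2 differences between 0.39 for Rps20 and 1.06 for Rpl38. The array VMG 17 was the highest of its group for Rpl17, Rpl7 and Rpl35a, and still lay below every WntH array for these genes.

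The 5 ribosomal protein genes outside the call were Rplp2, a protein of the acidic stalk (0.46, adjusted p = 0.0585), Rpl36a (0.14), Rps12 (0.08), Rpl3l (-0.08) and Rps25 (-0.25, adjusted p = 0.0687). Rps25 encodes a small-subunit protein used by some internal ribosome entry sites. Its ratios were -0.11 to 0.15 in WntH, against 0.09, 0.35, 0.41, 0.47 and 0.08 in VMG, so that 4 of 7 WntH arrays lay below all VMG arrays.

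The remaining classes moved less as a whole. Of the elongation factors, Eef1b2, an exchange factor for eEF1A, rose by 0.98 ± 0.16 (adjusted p = 0.000822), and Eef1a2, the eEF1A form of muscle and neurons, rose by 0.82 ± 0.17 (adjusted p = 0.00418). Of 21 initiation factors, Eif3m, Eif1ad, Eif2a and Eif1ax rose by 0.61, 0.59, 0.54 and 0.52, and Eif4e3, a cap-binding protein, fell by 0.32 ± 0.10 (adjusted p = 0.0422). The Eif4e3 call was lost when VMG 27, 28, 29 or 13 was left out (adjusted p of 0.079, 0.114, 0.109 and 0.0522). Larger falls that were not called were those of Eef1a1 (-0.93), Eif3a (-0.93), Eif2s3y (-0.75), Eif3d (-0.57) and Eif3l (-0.55). Their adjusted p in limma lay between 0.104 and 0.125. No regulator was called. These were Eef2k, the kinase that inactivates eEF2 (0.17), Eif2ak2, Eif2ak3 and Eif2ak4, kinases that phosphorylate eIF2 (-0.09, -0.23 and -0.15), and Eif4ebp2, a repressor of eIF4E (-0.11).

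Genes beyond the members that serve the same process moved in the same comparison. Of 23 ribosome biogenesis genes 10 rose and 1 fell, with a median of 0.31. Among them were the nucleolar proteins Nop58 (0.65), Ddx21 (0.64) and Nop56 (0.60), while Utp20, of the small-subunit processome, fell by 1.12. Of 8 other translation genes, Tpt1 (0.92), Rpsa (0.89), Naca (0.76) and Fau (0.63) rose and none fell. Of 13 adipocyte markers 11 fell, with a median of -1.22. Of 7 markers from a list that joins epithelial and myoepithelial genes 4 rose, with a median of 0.40. Of 8 proliferation markers 4 rose, with a median of 0.62. The part of these shifts in the ribosomal protein rise was not tested.

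**Figure D3:**
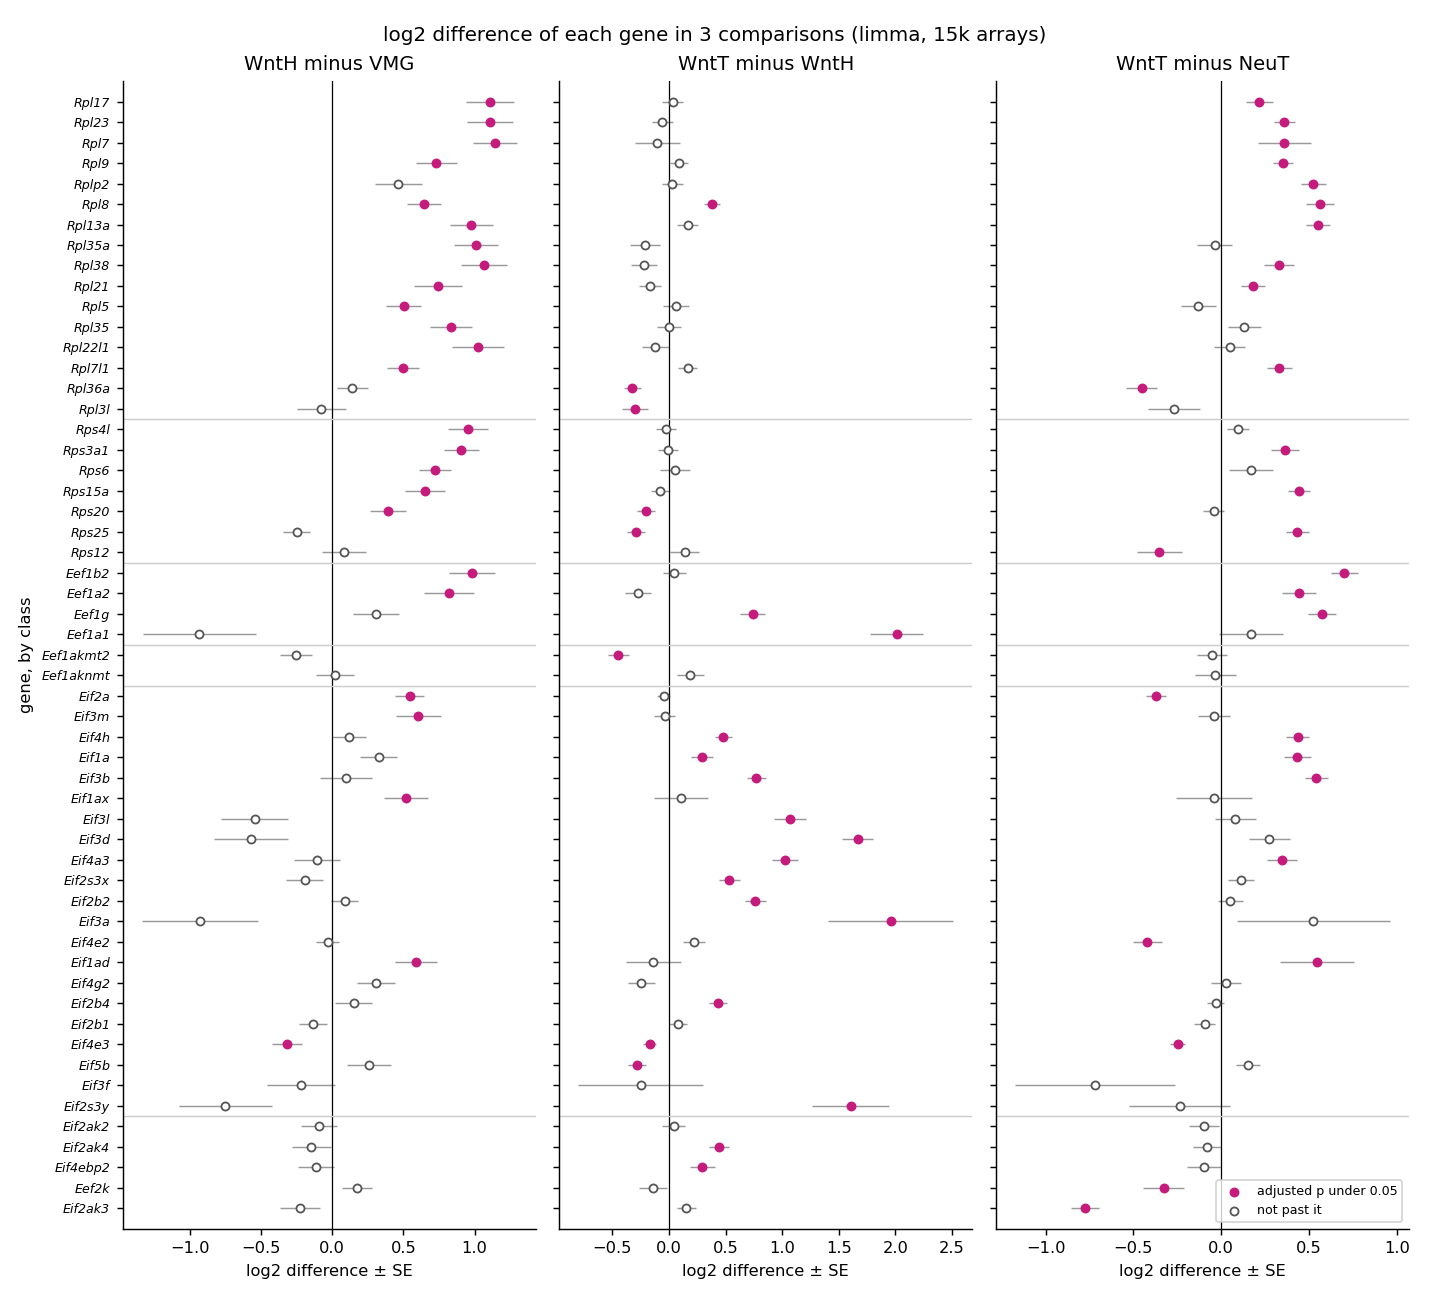
Log2 difference (± SE) of each of the 55 members in WntH minus VMG, WntT minus WntH and WntT minus NeuT, with filled points for adjusted p under 0.05 in limma. The ribosomal proteins shift to the right in WntH minus VMG (median 0.73) and lie near 0 in WntT minus WntH (median -0.03), where the initiation factors shift instead (median 0.29).

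The comparison of tumors with hyperplastic glands addressed the next step in the same mice. Here the initiation factors rose: 11 of 21 were called higher and 2 lower, against 21.9% of all genes called higher and 22.2% called lower. The ribosomal proteins had a median of -0.03, as had all genes, with 1 of 23 called higher (Rpl8, 0.38) and 4 lower (Rpl36a at -0.32, Rpl3l at -0.30, Rps25 at -0.29 and Rps20 at -0.20). Over all members 16 rose and 7 fell, or 17 and 4 with array medians centred. A permutation test modelled on the one in the methods, with fewer regroupings, called 15 at P under 0.001. No share of all genes was computed for it.

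Eef1a1 had the largest rise. Its log2 ratios ran from -1.40 to 1.06 in WntT with a median of 0.68, against -2.26 to -0.47 in WntH with a median of -1.67, and 22 of 23 tumors lay above all hyperplastic glands. The log2 difference was 2.01 ± 0.24, or 4.03-fold (SE, adjusted p = 3.66e-08). Eif3d, the eIF3 subunit that can bind the cap, ran from -0.61 to 0.77 in WntT with a median of 0.45, against -1.62 to -0.90 in WntH with a median of -1.36. Here the groups did not overlap, and the rise was 1.67 ± 0.14, or 3.18-fold (adjusted p = 3.22e-11).

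Other subunits of eIF3, the scaffold of the initiation complex, moved with it. Eif3a, its largest subunit, rose by 1.96 ± 0.55 (adjusted p = 0.0045), with tumors spread between -1.25 and 4.96 around a median of -0.23. Eif3l rose by 1.07 and Eif3b by 0.77, while Eif3m (-0.04) and Eif3f (-0.25) were not called. Clones for both genes of the gamma subunit of eIF2 read higher. Eif2s3x, the X-linked copy, was higher by 0.53 ± 0.10 (adjusted p = 2.99e-05), with 0.90 and 0.17 on its 2 clones. The clone of Eif2s3y, the Y-linked copy, was higher by 1.60 ± 0.34 (adjusted p = 0.000239). These genes are close copies, and cDNA clones of the kind spotted here can bind RNA of both. A higher reading of the Y-linked clone was therefore not taken as RNA of Eif2s3y. Eif4a3, the helicase of the exon junction complex, rose by 1.03, Eif2b2 and Eif2b4, of the eIF2 exchange factor, by 0.76 and 0.43, and Eif4h, a helper of the eIF4A helicase, by 0.48.

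Among elongation factors Eef1g, the structural subunit of the eEF1B complex, rose by 0.74 ± 0.11 (adjusted p = 1.75e-06), whereas Eef1b2 (0.05) and Eef1a2 (-0.27, adjusted p = 0.0552) were not called. Of the regulators Eif2ak4, the amino acid sensor GCN2, rose by 0.44 and Eif4ebp2 by 0.30 ± 0.11 (adjusted p = 0.0314). Eef1akmt2, a methyltransferase for eEF1A, had the largest fall at -0.45 ± 0.09 (adjusted p = 0.000177), ahead of Rpl36a and Rpl3l. Of 23 ribosome biogenesis genes 13 rose and 2 fell, from Nop58 at 1.49 to Heatr1 at -3.09. All 8 proliferation markers rose (median 1.25), 12 of 13 adipocyte markers and 9 of 9 muscle markers fell, and the part of these in the member changes was not tested.

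The low ratios of Eef1a1 and of several initiation factors in hyperplastic glands were also found in some virgin glands. Eef1a1 was below -1 on 6 of 7 WntH arrays, on 2 of 5 VMG arrays and on 1 of 23 WntT arrays. Its VMG values were -1.44 and -1.84 on arrays 17 and 13, against -0.30, 0.08 and 0.50 on arrays 28, 29 and 27. Eif3d had -1.46 and -1.52 on VMG arrays 17 and 13 and -0.13, -0.27 and -0.17 on the others. Eif3a had -1.77 and -2.21 on the same 2 arrays and -0.21, 0.08 and 0.38 on the others. The 2 arrays thus resembled the hyperplastic glands for these genes, although for Rpl17 they read 1.12 and 0.37, below every WntH array. The WntH arrays carry sample numbers from 5 to 15. VMG 13 falls within that range and VMG 17 lies above it, below VMG 27, 28 and 29. Of the tumors on 15k arrays, WntT 8 also falls within it, and the other WntT arrays are numbered 20 or above. The labels do not say what a number stands for. What sets VMG 17 and 13 apart was not tested, nor whether the rise of these genes in WntT over WntH follows the numbers.

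**Figure D4:**
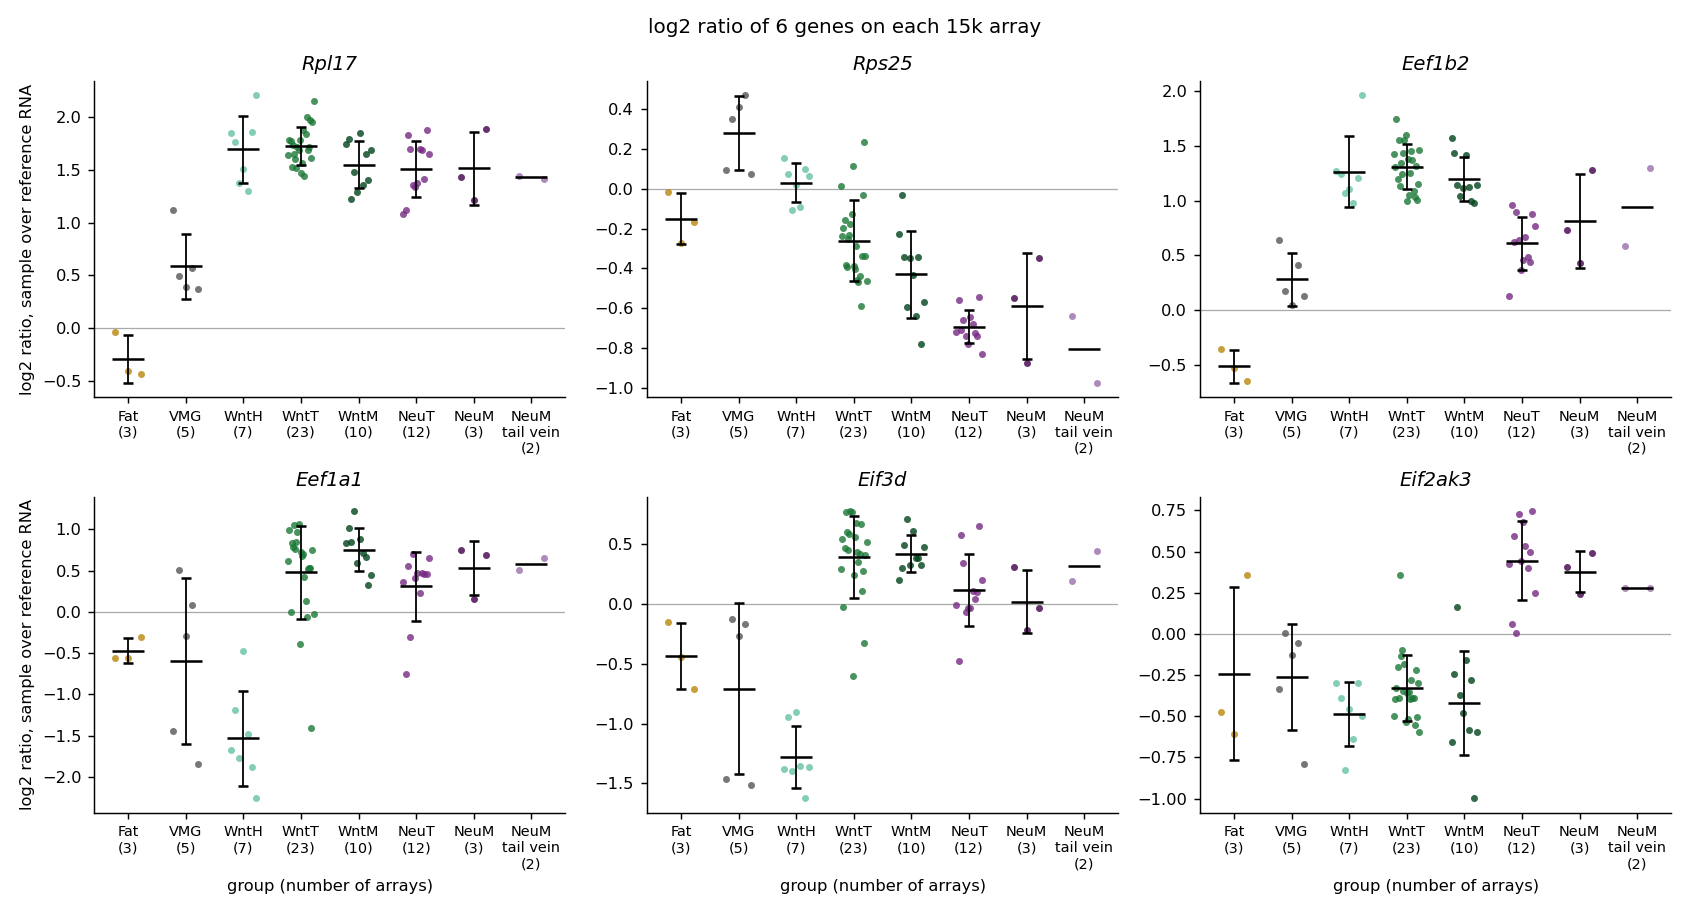
Log2 ratio to the reference RNA of Rpl17, Rps25, Eef1b2, Eef1a1, Eif3d and Eif2ak3 on every 15k array by group (points, arrays; bars, group means). Eef1a1 and Eif3d are low in WntH and on 2 of the 5 VMG arrays, and Eif2ak3 is higher in NeuT and NeuM than in WntT and WntM.

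Tumors of both transgenes were set against the same 5 virgin glands, so that these comparisons share their controls. WntT differed from VMG in 34 members called higher and 4 lower, against 26% and 26.5% of all genes. NeuT differed in 30 called higher and 3 lower, against 26.8% and 28.8%. The permutation test called 17, with no share of all genes computed for that test. Of the ribosomal proteins, 18 rose and 2 fell in WntT (median 0.80) and 17 rose and 1 fell in NeuT (median 0.53). The initiation factors showed 11 higher and 1 lower in WntT (median 0.57), and 8 higher and 1 lower in NeuT (median 0.45). All 4 elongation factors rose in WntT, and 3 of 4 in NeuT.

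In WntT, Rpl13a, which can also leave the ribosome to repress mRNAs of inflammation, ran from 0.89 to 1.64 with a median of 1.23, against 0.49, -0.17, -0.09, 0.16 and -0.17 in VMG. Every tumor lay above every virgin gland, and the difference was 1.14 ± 0.11 (adjusted p = 2.65e-10). Rpl17 rose by 1.14 ± 0.10 (adjusted p = 1.72e-10) and Eif3d by 1.10 ± 0.20 (adjusted p = 3.82e-05). Eef1a1 rose by 1.08 ± 0.31, Rps6 by 0.78 ± 0.15, Eef1a2 by 0.55 ± 0.12 and Eif2s3x by 0.34 ± 0.11 (adjusted p of 0.00455, 7.1e-05, 0.000398 and 0.00888). The Eif2s3x call was just lost without VMG 17 (adjusted p = 0.0501). Eef1akmt2 (-0.70), Rps25 (-0.54), Eif4e3 (-0.49) and Rpl3l (-0.38) fell.

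In NeuT, the Eif2s3y clone read higher by 1.09 ± 0.37 (adjusted p = 0.0191), a reading that RNA of Eif2s3x may share. Rpl17 rose by 0.92 ± 0.14 (adjusted p = 3.01e-05) and Eef1a1 by 0.91 ± 0.31 (adjusted p = 0.02). The Eef1a1 call was lost without VMG 17 (adjusted p = 0.0812) or VMG 13 (0.0947), and the Eif2s3y call without the same arrays (0.0797 and 0.0591). Rps6 rose by 0.61 ± 0.19 (adjusted p = 0.0101). Eif2a, an alternative carrier of initiator tRNA, rose by 0.87 in NeuT and lay above all virgin glands in 12 of 12 tumors.

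Rps25 went against the other ribosomal proteins. Its log2 ratios ran from -0.83 to -0.54 in NeuT with a median of -0.71, and all 12 tumors lay below all 5 virgin glands (0.09, 0.35, 0.41, 0.47 and 0.08). The log2 difference was -0.97 ± 0.08 (SE, adjusted p = 5.3e-09). Eef1akmt2 fell by 0.65 ± 0.13 in NeuT (adjusted p = 0.000508) and Eif4e3 by 0.24 ± 0.08 (adjusted p = 0.016), and the Eif4e3 call was lost without VMG 28 or 29 (0.0564 and 0.0555). Of 13 adipocyte markers 13 fell in both tumor types, and 9 and 8 of 9 muscle markers fell in WntT and NeuT. Their part in the member changes was not tested.

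The direct comparison of WntT with NeuT asked how tumors of different initiating oncogenes differ. Of the 55 members 21 were called higher in WntT and 7 lower, against 22.8% and 23% of all genes. Ribosomal proteins accounted for 13 of the rises and 2 of the falls, with a median of 0.22 (all genes, -0.03), or 0.40 with quantile normalization. Of 4 elongation factors 3 were higher, initiation factors were split at 5 higher and 3 lower of 21, and 2 of 5 regulators were lower.

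Eef1b2 had the largest difference upward. It ran from 1.001 to 1.75 in WntT with a median of 1.31, against 0.13 to 0.96 in NeuT with a median of 0.63. All 23 WntT arrays lay above all 12 NeuT arrays, and the log2 difference was 0.70 ± 0.08 (SE, adjusted p = 2.71e-09). Eef1g, its partner in the eEF1B complex, was higher by 0.57 ± 0.08 (adjusted p = 3.24e-07), and Eef1a2 by 0.44 ± 0.10 (adjusted p = 0.000235). Eef1a1 was not called (0.17).

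Among ribosomal proteins Rpl8 was higher by 0.56 ± 0.08 (adjusted p = 3.89e-07), and Rpl13a, with 0.89 to 1.64 in WntT against 0.31 to 0.86 in NeuT, by 0.55 ± 0.07 (adjusted p = 2.23e-08) with no overlap. Rplp2 (0.52), Rps15a (0.44) and Rps25 (0.43) came next. Rps25 ran from -0.59 to 0.24 in WntT, against -0.83 to -0.54 in NeuT, so that 22 of 23 WntT arrays were above all NeuT arrays. Rpl36a (-0.45 ± 0.09, adjusted p = 3.98e-05) and Rps12 (-0.35) were lower in WntT. Rps6 (0.17), Rpl5 (-0.13), Rps4l (0.09) and Rpl35a (-0.04) were among the 8 that were not called.

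Eif2ak3 showed the largest difference downward. It encodes PERK, the kinase of the endoplasmic reticulum that phosphorylates eIF2 when unfolded proteins accumulate. Its log2 ratios ran from -0.60 to 0.36 in WntT with a median of -0.36, against 0.00 to 0.75 in NeuT with a median of 0.47, and 22 of 23 WntT arrays lay below all NeuT arrays. The difference was -0.78 ± 0.08 (adjusted p = 1.82e-10). Eef2k was also lower in WntT, by 0.33 ± 0.11 (adjusted p = 0.0177), whereas Eif2ak2 (-0.10), Eif2ak4 (-0.08) and Eif4ebp2 (-0.10) were not called.

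Initiation factors higher in WntT were Eif1ad (0.55), Eif3b (0.54), Eif4h (0.43), Eif1a (0.43) and Eif4a3 (0.35), and those lower were Eif4e2, a cap-binding repressor (-0.42 ± 0.08, adjusted p = 6.28e-05), Eif2a (-0.37) and Eif4e3 (-0.25). Eif2s3x (0.11) and Eif2s3y (-0.24) were not called. Of 23 ribosome biogenesis genes 16 were higher in WntT and 1 lower, led by Nop58 at 2.71 and Ddx21 at 1.10. Markers of the epithelial list, which joins epithelial and myoepithelial genes, averaged 0.91 in WntT and -1.09 in NeuT. That mean does not measure epithelial content. Proliferation markers averaged 0.01 in WntT and -0.46 in NeuT. The part of these in the member differences was not tested, and strain background cannot be told apart from the transgene.

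Some genes with several clones did not read alike. In WntT against NeuT, the clones of Rps15a gave 0.97 and -0.08 and those of Eif4e3 gave -0.66 and 0.17. In WntH against VMG they gave 1.198 and 0.11 for Rps15a and -0.82 and 0.18 for Eif4e3. Against VMG the Eif4e3 clones gave -1.17 and 0.20 in WntT and -0.51 and 0.03 in NeuT. The 3 clones of Eif4e2 gave -0.88, -0.24 and -0.14 in WntT against NeuT, and -0.26, 0.51 and 0.42 in WntT against WntH. The Eif2s3x clones gave 0.62 and 0.06 in WntT against VMG. In WntT against WntH the clones of Eif2s3x gave 0.90 and 0.17, and the 4 clones of Eif4ebp2 gave 1.31, 0.54, -0.29 and -0.37, so their averaged values stand for no single clone.

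Fat gave values for a tissue made mostly of adipocytes, which the glands also contain. Against VMG, 7 members were lower in Fat and none higher, beside 3.19% of all genes called lower and 4.3% called higher. Of 23 ribosomal proteins 5 fell, with a median of -0.57 (all genes, -0.13). Rpl17 had -0.03, -0.41 and -0.44 in Fat, against 1.12, 0.49, 0.39, 0.57 and 0.37 in VMG, with no overlap. Its difference was -0.88 ± 0.20 (SE, adjusted p = 0.0437), and Rpl35a (-0.83), Rpl13a (-0.75), Rps4l (-0.73) and Rpl8 (-0.63) also fell. Eef1b2 fell by 0.79 ± 0.16 (adjusted p = 0.031) and Eif4g2, a relative of eIF4G that works without the cap-binding protein, by 0.72 ± 0.15 (adjusted p = 0.0349). At an unadjusted p under 0.05 limma gave 24 members, 22 of them lower, and the permutation test gave 0 at P under 0.001. The share of all genes at that unadjusted p was not computed. With 3 fat samples these calls were not stable. None was left without Fat 46 or without VMG 17, 27, 28 or 29, and 3 were left without Fat 45 or VMG 13. The array Fat 44 had the widest ratios of all (SD 2.59), and without it 6 members were called and the ribosomal protein median was -0.41. With quantile normalization the median over all genes was -0.0012 and that of the ribosomal proteins -0.48, with 1 member called higher and 4 lower, and centring gave 1 higher and 6 lower. Of 13 adipocyte markers 10 were higher in Fat and of 9 muscle markers 7 lower, and their part was not tested.

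Lung metastases were set against primary tumors of the same transgene. In WntM 1 member was called higher than in WntT and none lower, against 2.88% and 2.58% of all genes. It was Eif2ak4, with 0.04 to 0.75 in WntM around a median of 0.57, against -0.22 to 0.64 in WntT around a median of 0.21, a log2 difference of 0.28 ± 0.08 (SE, adjusted p = 0.0267) between overlapping groups. The call was lost without the arrays of SD over 1.3 (0.24, adjusted p = 0.205). At an unadjusted p under 0.05 limma gave 14 members, of which 11 were lower, and the share of all genes at that limit was not computed. Ribosomal proteins had a median of -0.12 beside -0.03 over all genes, and the WntM mean was lower for 20 of 23. By the median of -0.03, a majority of all genes had the lower mean in WntM too. Eef1a2 read -7.02 and -6.39 on WntM 50 and 52, both with wide ratios, and 0.41 to 1.38 on the other 8, for a difference of -1.65 that was not called (adjusted p = 0.127).

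In NeuM against NeuT no member was called by limma, beside 0.155% of all genes called higher and 0% called lower. At an unadjusted p under 0.05 limma gave 2 members, 1 in each direction, and the permutation test at P under 0.001 gave 0. The ribosomal protein median was 0.10, and -0.0928 without NeuM 61. The difference between the effects in Wnt and Neu mice was also without a called member, beside 0.0386% and 0.0129% of all genes, with 6 members at an unadjusted p under 0.05 in limma. Its median over ribosomal proteins was -0.19, and 0.0011 without NeuM 61. The permutation test was not run on that difference. For neither comparison was the share of all genes at an unadjusted p computed. Lung markers averaged 0.64 in WntM and -0.78 in NeuM, against -3.70 in WntT and -3.54 in NeuT, and the part of lung tissue in these values was not tested.

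WntM and NeuM differed in 13 members, 8 higher and 5 lower in WntM, against 7.53% and 9.07% of all genes. The permutation test called 5, with no share of all genes computed for it. Without NeuM 53, 56 or 61 the members called were 7, 8 and 5, of which 1, 4 and 1 were lower. Eif2ak3 ran from -0.998 to 0.16 in WntM with a median of -0.42, against 0.40, 0.24 and 0.49 in NeuM. All 10 WntM arrays lay below all NeuM arrays, and the difference was -0.80 ± 0.19 (SE, adjusted p = 0.0117). The call was lost without NeuM 53 or 61 (adjusted p = 0.0512 and 0.063). Rplp2 (0.81, adjusted p = 0.00456), Rpl8 (0.69) and Eif3b (0.62) were higher in WntM, and Rpl36a (-0.54, adjusted p = 0.00421), Eif2a (-0.52) and Rps6 (-0.46 ± 0.14, adjusted p = 0.0447) lower. The Eif3b call was lost without NeuM 61 (0.52, adjusted p = 0.0582). The Eif2a and Rps6 calls were lost without NeuM 53 (0.0513 and 0.0802) or NeuM 61 (0.217 and 0.267), and that of Rps6 also without NeuM 56 (0.0516). Ribosomal proteins as a class had a median of 0.03, with 3 higher and 2 lower, and the median was -0.107 without NeuM 56 and 0.254 without NeuM 61. The 2 tail vein arrays averaged 0.73 over the ribosomal proteins. They read 0.28 and 0.28 for Eif2ak3, within the range of NeuM, but 3.52 and -0.24 for Eif3b.

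On the 8.7k arrays tumors without p53 were set against other MMTV-Wnt-1 tumors. The 16 ribosomal protein genes there averaged 0.83 ± 0.24 per array in WntT/p53-/- and 1.12 ± 0.11 in WntT (SD, n = 6 and 10), with a median log2 difference of -0.31 beside -0.02 over all genes, and 14 of 16 had the lower mean in WntT/p53-/-. No member was called by limma, beside 0.192% of all genes called higher and 0.314% called lower. At an unadjusted p under 0.05 limma gave 16 of 42 members, 13 of them lower and 8 of them ribosomal, and the permutation test gave 3 at P under 0.001. Shares of all genes at these looser limits were not computed, so these counts have no background beside them.

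Rpl5, which with Rpl11 can bind the p53 inhibitor Mdm2, came closest. Its log2 ratios were 0.52, 0.70, 0.80, 0.82, 0.35 and 0.53 in WntT/p53-/-, against 0.84 to 1.37 in WntT with a median of 1.15. The groups did not overlap, and the difference was -0.50 ± 0.11 (SE, adjusted p = 0.0511). Rps6 read 0.91, 0.66, 1.19, 0.67, 0.37 and 0.51 in WntT/p53-/-, against 0.73 to 1.60 in WntT, a difference of -0.50 ± 0.14 (adjusted p = 0.0998) between overlapping groups. Rpl22l1, a paralog of Rpl22, spread from -1.15 to 0.94 in WntT/p53-/-, against 0.55 to 1.21 in WntT (difference -0.81, adjusted p = 0.114). Eif2b2, a subunit of the eIF2 exchange factor, read 0.71, 0.48, 0.77, 0.44, 0.95 and 0.46 in WntT/p53-/-, against 0.02 to 0.38 in WntT, without overlap (0.41 ± 0.09, adjusted p = 0.0536). Rpl9 had the higher mean in WntT/p53-/- (difference 0.36), where 1 array read 4.62 and the other 5 between 0.68 and 1.42. Values of the remaining genes fixed for description were -0.31 for Eef1a1, -0.33 for Eef1a2, -0.44 for Eef2k, -0.46 for Eif4ebp2, 0.09 for Eif2s3x and -0.06 for Eif2s3y, with adjusted p from 0.169 to 0.953. Markers of the list that joins epithelial and myoepithelial genes averaged 0.43 in WntT/p53-/- and 1.33 in WntT, and their part was not tested.

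**Figure D5:**
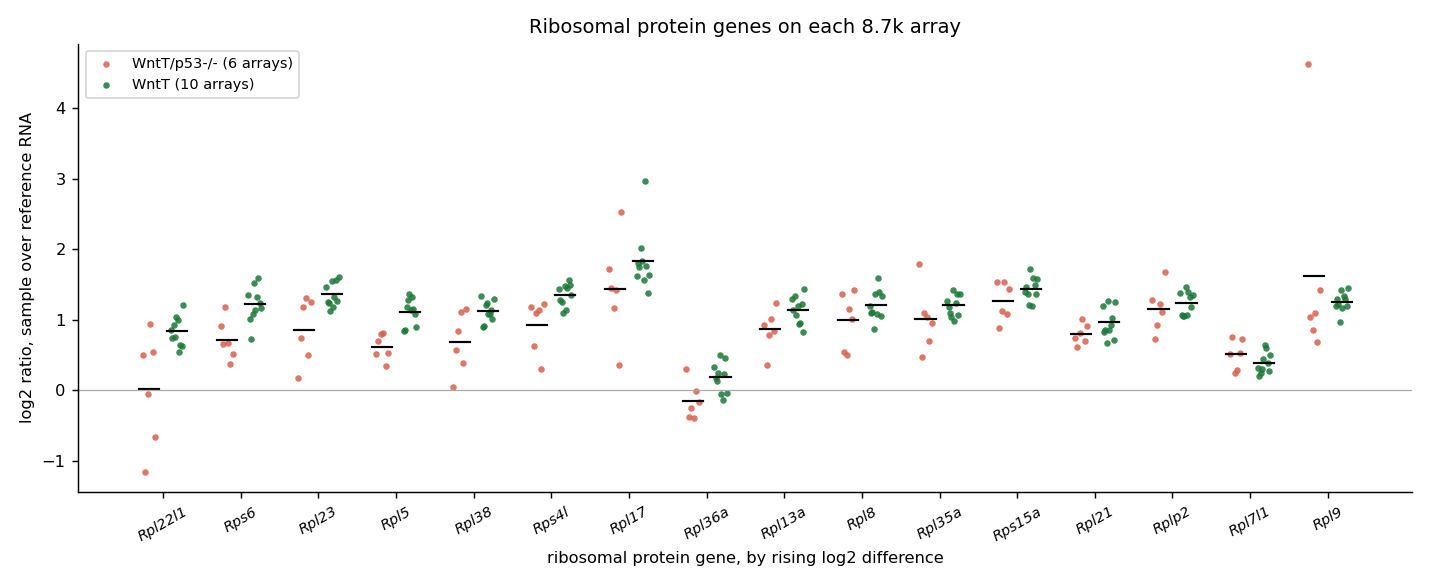
Log2 ratio to the reference RNA of the 16 ribosomal protein genes on the 8.7k arrays, with WntT/p53-/- (6 arrays) left of WntT (10 arrays) for each gene (points, arrays; lines, group means), ordered by log2 difference. Means were lower in WntT/p53-/- for 14 of 16 genes, none of them called by limma, and Rpl9 stood at 4.62 on 1 WntT/p53-/- array.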

How the data were processed

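RNA of each sample (Cy5) was hybridised with the common reference RNA (Cy3) to spotted cDNA arrays. The authors normalized the ratios of each array, and the deposited values are log2 ratios. That they are base 2 was tested on the values: all 3031 ratios under 0.01 on the 15k arrays then lay within 0.02 steps of a whole multiple of 0.0001. Of 998400 values on these arrays 8 were missing, and no pair of arrays correlated above 0.937. Neither raw intensities nor spot quality were used here. Array types were never compared with each other.

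Clones with a single symbol were averaged per gene, and 10 clones (15k) and 5 (8.7k) that join a member symbol with another were left out. Gene means were tested with limma 3.58.1 (R 4.3.3; lmFit and eBayes, two-sided) between pairs of groups, over genes measured on 2 or more arrays, and on no fewer than 50%, in both groups. Benjamini-Hochberg adjustment ran over all 7766 or 5725 genes, with calls at an adjusted p under 0.05. Differences are on the log2 scale with their SE from limma. Counts at an unadjusted p and counts of the permutation test were taken for members alone, without a share of all genes. The procedure was tested on simulated data. A permutation test after the methods, with t-statistics pooled over genes from 100 regroupings of the arrays (all 56 for Fat vs VMG; fewer than the methods used) and P under 0.001, was an alternative, as were centring, quantile normalization, other ways to combine clones, setting ratios under 0.01 or over 100 missing, leaving out arrays of SD over 1.3, other fits and leaving out each array of groups of 3 to 5 (NeuM, Fat and VMG).

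Genes named by rule were, in each comparison, the 3 largest rises and the 3 largest falls among called members, and a list of factors always looked up (Eif2s3x, Eif2s3y, Eef1a1, Eef1a2, Eef2, Eef2k, Eif4e, Eif4ebp1, Eif4ebp2, Eif6, Eif2ak2, Rps6 and Rplp0). Further members were named after their values were seen. The members and lists were chosen with earlier results of these data known. Another set of 8.7k arrays was left aside, and tumors were not compared by Ha-Ras status, which was not used here. Correlations are Pearson's.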

Additional observations from a re-analysis of the deposited data

Results flagged for a closer look

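The check covered genes named by rule that were called in some comparison. Genes named after their values were seen, such as Rpl9 and Rpl5, were not part of it. Of 130 pairs of a covered gene and a group of 4 to 10 arrays, 13 held an outlying array. The gap of such an array to its nearest neighbour was large for the range of its group (Dixon's criterion). Chance alone marks about 1 in 20 such groups. On the 15k arrays these were Eef1g on WntM 42 (log2 ratio 0.205, next array 0.658), Eif4e2 on WntM 50 (-1.07, next -0.32), Eif3a on WntM 49 (5.71, next 2.72), Eif2s3x on WntM 52 (-0.0348, next 0.271) and Eif2s3y on WntM 50 (-2.63, next -0.51). WntH 5 stood above the other hyperplastic glands for Eef1b2 (1.96, next 1.27) and Eif4e3 (0.482, next 0.0804), and VMG 17 above the other virgin glands for Rpl17 (1.12, next 0.57). On the 8.7k arrays they were Eef1g on WntT 94 (0.234, next 0.726), Rpl17 on WntT 95 (2.97, next 2.01), Eif2s3x on WntT 96 (-0.447, next 0.215), and Eif3a (0.911, next 0.114) and Eif2s3y (-1.60, next -0.215) on WntT/p53-/- 87. WntM 50 and 52 were among the arrays of SD over 1.3.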

How the results depend on the processing

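Most values held under the alternatives tried: of the counts of members called 117 stayed within 1.5 times the reported count and 27 did not, of the ribosomal protein medians 137 moved by less than the spread between arrays and 7 by more, and of the named genes 587 kept direction and call, 78 lost the call and 1 reversed. With quantile normalization the ribosomal protein median was 0.40 in WntT vs NeuT (0.22 as reported), 0.95 in WntT vs VMG (0.80) and 0.24 in WntM vs NeuM (0.035). The permutation test called 15 members in WntT vs WntH (23), 17 in NeuT vs VMG (33), 5 in WntM vs NeuM (13), 0 in Fat vs VMG (7) and 3 in WntT/p53-/- vs WntT (0). Its share of all genes was not computed. In WntM vs WntT 2 members were called with arrays centred, with quantile normalization or in a single fit over all groups, and 0 without arrays of SD over 1.3 (1 as reported). In Fat vs VMG 11 were called with extreme ratios set missing or with trended, robust variances, and 24 in a single fit, while leaving out each Fat or VMG array gave 0 to 6. In WntT/p53-/- vs WntT quantile normalization or trended, robust variances called 1. Leaving out each NeuM array gave ribosomal protein medians of -0.0928 to 0.203 in NeuM vs NeuT (0.104), -0.107 to 0.254 in WntM vs NeuM, and -0.294 to 0.0011 for the difference of metastasis effects (-0.194), with 5 to 8 members called in WntM vs NeuM and 0 to 1 in the difference. Eif3b reversed in WntM vs NeuM, to -0.0858 (adjusted p = 0.918), once the tail vein arrays were counted as NeuM, 1 of which read 3.52. Eef1a2 lost its call in a single fit over all groups in WntH vs VMG, WntT vs VMG and WntT vs NeuT (adjusted p of 0.58, 0.504 and 0.47). The cause of the other changes was not tested.

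Metastases and tumors share some sample numbers. With the number as a replicate block, 0 members were called in WntM vs WntT (Eif2ak4 at 0.31, adjusted p = 0.363), and 0 also on the paired arrays without the block, an alternative chosen after seeing the data. In the replicate block fit the ribosomal protein medians were -0.11 in WntM vs WntT and 0.113 in NeuM vs NeuT, with 0 members called in NeuM vs NeuT. Deviations of same-numbered arrays correlated at -0.054 to 0.304 over 7 numbers in Wnt mice, where 1 of 7 correlated best with its own number. In Neu mice they correlated at -0.012 to 0.102 over 3 numbers, where 0 of 3 did. The labels do not say that a number marks the same mouse, and low correlations cannot show that it does not. The main comparisons were left unpaired, with the block fit given beside them. Group sizes of 2 to 5 limit the comparisons with NeuM, Fat and VMG, and no value measures signal over background.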

Other observations

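Genes around the members were also looked up from lists of aminoacyl-tRNA synthetases and of the mTOR and S6 kinase pathway, which controls translation of ribosomal protein mRNAs. Of 10 synthetases, 1 was higher and 2 lower in WntT than in NeuT, with Farsa, a subunit of the phenylalanine enzyme, higher by 1.19 ± 0.11 (SE, limma, adjusted p = 8.85e-12). In WntH against VMG 2 rose and 1 fell, with Tars, the threonine enzyme, at 0.50 ± 0.09 (adjusted p = 0.00204) and Farsa at -0.71 ± 0.13 (adjusted p = 0.00208). Of 8 genes of the kinase pathway, Akt1 rose by 0.67 ± 0.06 (adjusted p = 6.56e-11) and Akt2 by 1.63 ± 0.22 (adjusted p = 3.16e-07) in WntT against WntH, and none fell. Akt2 was lower in WntH than in VMG, at -1.83 ± 0.44 (adjusted p = 0.00833), the single call of the 8 in that comparison. Mtor itself was higher in WntT than in NeuT by 0.48 ± 0.12 (adjusted p = 0.00141). Beside these stand the background shares of 22.8% higher and 23% lower in WntT vs NeuT, 9.58% and 14.3% in WntH vs VMG, and 21.9% and 22.2% in WntT vs WntH.

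In WntT/p53-/- against WntT, limma called none of 22 ribosome biogenesis genes on the 8.7k arrays, their median difference was 0.09, and 13 had the higher mean in WntT/p53-/-. The ribosomal protein median there was -0.31, with no test of the difference between the lists.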
